A study of Mus musculus with 16 samples.

Results

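The 41 genes described here had a mean level after 4 h of ERK induction close to that before it and were higher once a MEK inhibitor had been added. They were taken from 52636 gene identifiers, of which 12215 had enough counts to be tested. A group's level was its mean in CPM (counts scaled to a library size corrected for composition with TMM factors), and differences were taken on the log2(CPM + 1) scale. Members had a mean of at least 5 CPM after MEK inhibition (8606 genes), a 4h level within 0.25 of the 0h level (5167 of these), and a rise of at least 0.5 over 4h (78) and over 0h (51). Names beginning with Gm, Hist or Mir and 1 further gene were then dropped, which left 41, of which 37 are annotated as protein coding. Membership turned on single libraries, since 26 of the 41 still met the rule without 0h clone 8 replicate 1 and 28 without 4h clone 4 replicate 1. The smaller of the 2 rises is called the rise of a member below.

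RNA came from CRAFR26, a mouse embryonic stem cell line that carries a c-RAF kinase construct switched on by 4-hydroxytamoxifen (4OHT), so that ERK is activated without a growth factor. All cells had been kept in N2B27 medium with LIF and the GSK3 inhibitor Chir, and for 48 h with 250 nM of the FGF receptor inhibitor PD17 in place of the MEK inhibitor PD03. The 4 groups were cells with PD17 alone (0h), cells with 4OHT at 250 nM for 2 h (2h) or 4 h (4h), and cells given 4OHT for 4 h and then a MEK inhibitor for 2 h more (rev). Each group had 4 libraries, 2 from clone 4 and 2 from clone 8 of the line, and the study collected rev to follow the reversion of ERK targets. No group of 6 h of 4OHT without the inhibitor was analysed here, so the effect of the inhibitor and of 2 further hours cannot be told apart. Replicates of a clone are not described as separate cultures, so p-values measure the spread between these libraries, which may be technical.

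ERK is the last kinase of the RAF-MEK-ERK cascade, and MEK is the kinase that activates it. In mouse embryonic stem cells ERK activity favours exit from the naive state, and a MEK inhibitor is part of the medium that holds cells in that state. Immediate-early and feedback genes have short-lived transcripts that follow ERK activity closely, while genes repressed by the pathway recover when it is blocked. A gene that is flat throughout induction and higher after inhibition would belong to neither of these classes. The rule compared only the start and the end of induction, so membership alone does not place a gene outside them. By group mean, Ppp1r10, Klf3, Dusp14 and Ulk1 rose early in induction and then fell back. Fzd10 was lower during induction and higher after inhibition.

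Libraries held 2172651 to 12680303 counts, and the 8 most abundant gene models, ribosomal RNA models among them, took 42% to 80.4% of them. Outside these models 896905 to 5693723 counts remained, and 3 counts were worth 0.213 to 1.35 CPM. The highest share was in rev clone 8 replicate 2, which also had the lowest TMM factor (0.463). The share averaged 65.9% ± 10.6 in rev and 54.1% ± 9.31 at 4h (SD, n = 4), a difference of 11.8 percentage points that did not pass (two-sided exact permutation test, p = 0.171, adjusted p = 0.343 over 2 comparisons, smallest possible p = 0.0286). Within each clone both rev libraries were above both 4h libraries, at 55.1% and 62.2% against 42% and 51.7% in clone 4 and 65.9% and 80.4% against 60.4% and 62.4% in clone 8. Against 0h (60.7% ± 2.39) the difference was 5.17 points (exact permutation p = 0.486, adjusted p = 0.486). Markers of embryonic stem cells summed to 962 to 1309 CPM over all libraries and none of the 8 averaged under 1 CPM, but in rev against 4h 6 of them passed as lower (8.43% of all tested genes did) and 1 as higher (7.93%).

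The contrasts of rev with 4h and with 0h chose the members, so their values are a description and carry no test. The median log2 fold change of the 41 genes was 0.72 in rev against 4h and 0.72 in rev against 0h, beside 0.01 and -0.01 over all tested genes. In rev against 4h 40 members passed the threshold of the count model as higher (7.93% of all tested genes did) and 0 as lower (8.43%). In rev against 0h the counts were 39 (12.4%) and 0 (9.86%), and 38 passed in both (1.91%), counts that follow from the rule. Although the rule held the 4h mean near that of 0h, 1 member, Fzd10, passed as lower at 4h against 0h (-0.23 ± 0.09 SE; 16.8% of tested genes passed as lower) and 0 as higher (17.2%). The flat 4h mean did not hold within each clone: 18 members (43.9%) had a 4h level within 0.25 of 0h in both clones, as had 60.8% of the 5167 genes with a flat pooled level. In 6 members (14.6%, beside 6.99% of those genes) both 4h libraries were below both 0h libraries in clone 4 and above them in clone 8, and these were Lars2, mt-Rnr1, Dusp14, Ulk1, Fam222a and Rpp25. In 22 members all 4 rev libraries lay above all 4h and all 0h libraries (1.47% of tested genes), in 26 above all 4h libraries (6.48%) and in 28 above all 0h libraries (9.59%). Rises ran from 1.23 for Lars2 to 0.50 for Armc5, so most of the members changed by less than a doubling. Nearest inside the threshold were Armc5 (0.50), Rpp25 (0.51) and Cltb (0.51), and nearest outside it Ccdc92 (0.49), Bbc3 (0.48) and Lrp2 (0.48).

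**Figure D1:**
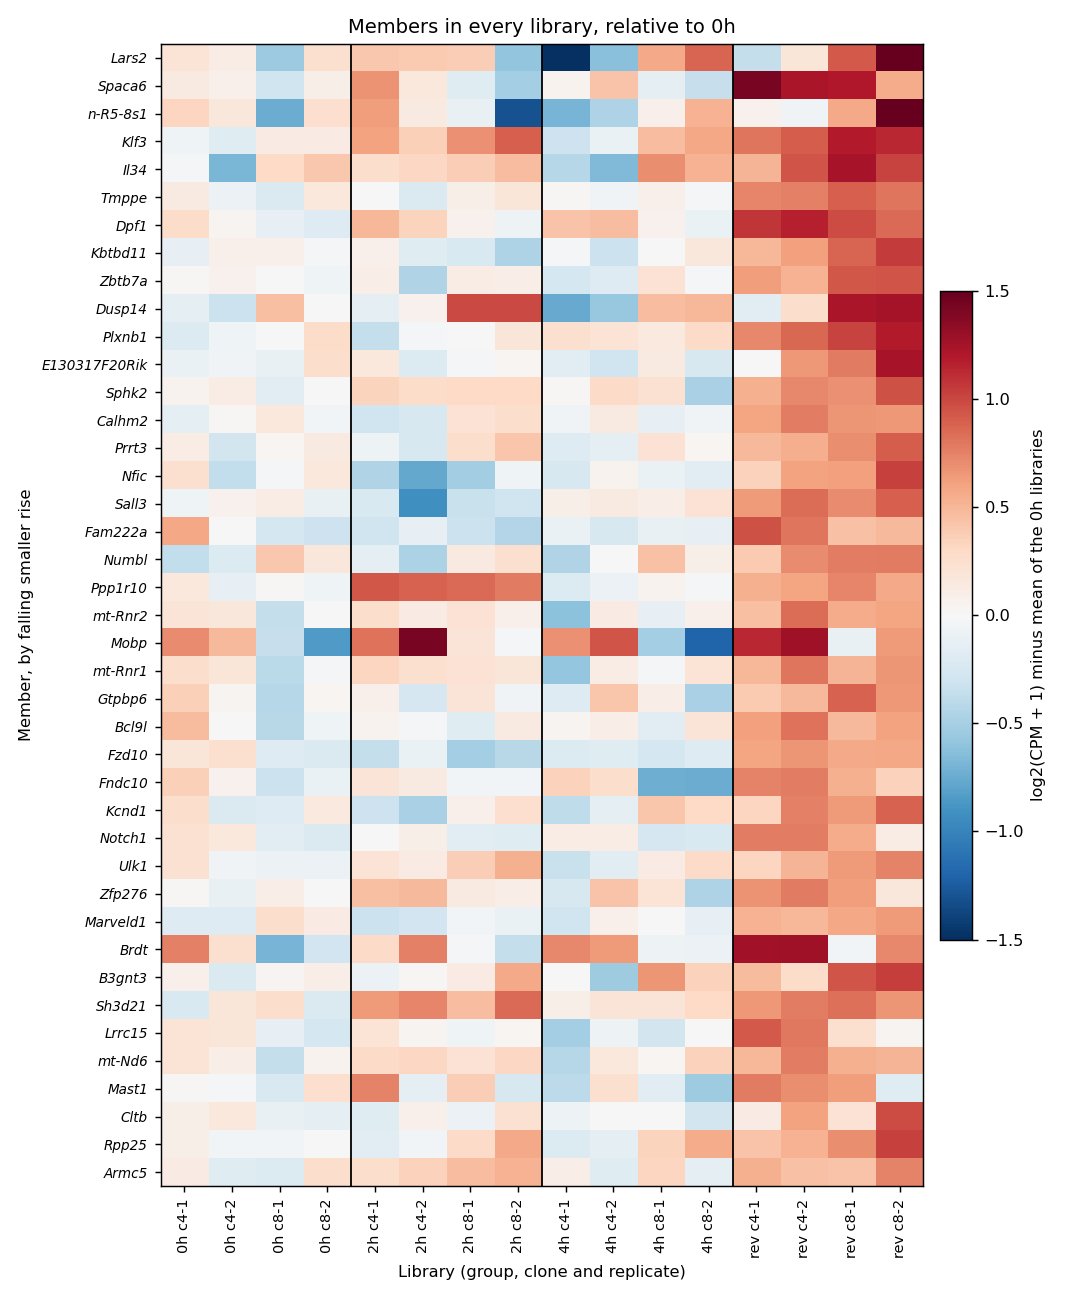
Level of each of the 41 members (rows, by falling rise) in each of the 16 libraries (columns, c4 and c8 for the clones), as log2(CPM + 1) minus the mean of the 0h libraries, with colours saturating at ±1.5. The 0h and 4h columns are pale for most members and the rev columns red, while Mobp and Brdt follow the clone and Lars2 and n-R5-8s1 stand out in rev clone 8 replicate 2.

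Members are grouped by known role for description only, since the groups were put together after the values were seen. Transcription factors and their partners come first. Values are given throughout in the order clone 4 replicates 1 and 2, then clone 8 replicates 1 and 2. Klf3, a Krüppel-like zinc finger factor that represses transcription, was at 42.6, 39.1, 48.9 and 48.7 CPM at 0h, 68.2, 57.4, 72.5 and 84.1 at 2h, 35.7, 41.7, 61.7 and 67.4 at 4h and 78.5, 84.9, 103 and 98.7 in rev. Every rev library was above every library at 0h and 4h, and clone 8 was the higher clone in all 4 groups. The fold of group means was 1.77 over 4h and 2.04 over 0h. Zbtb7a, a BTB zinc finger repressor, was at 22.8, 23.6, 22.5 and 21.5 CPM at 0h, 24.2, 16.2, 24.4 and 24.4 at 2h, 18.7, 19.6, 26.4 and 22.1 at 4h and 35.4, 32.8, 43.9 and 44.2 in rev. Its rev libraries again did not overlap those at 0h or 4h, with a fold of 1.80 over 4h and 1.73 over 0h.

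Sall3, a zinc finger factor of the spalt family, was at 11.1, 12.2, 12.7 and 10.7 CPM at 0h, 9.84, 5.69, 9.04 and 9.30 at 2h, 12.4, 12.9, 12.5 and 13.7 at 4h and 18.8, 21.7, 19.7 and 22.5 in rev. The 4h libraries lay between 12.4 and 13.7 CPM and the rev libraries between 18.8 and 22.5, while the 2h libraries were the lowest of all groups. Nfic, of the nuclear factor I family, was at 14.1, 8.95, 11.6 and 13.4 CPM at 0h, 8.42, 6.57, 7.94 and 11.3 at 2h, 9.90, 12.3, 11.01 and 10.5 at 4h and 15.4, 18.5, 18.7 and 25.2 in rev. Its rev libraries were all above those at 4h and 0h, the lowest by a small margin over 0h. Bcl9l, a coactivator of beta-catenin, went from 16.5 to 21.6 CPM at 4h to 26.7 to 33.7 CPM in rev, and Dpf1, a subunit of chromatin remodelling complexes of neurons, was at 5.43, 4.48, 3.86 and 3.63 CPM at 0h, 6.47, 5.69, 4.56 and 4.05 at 2h, 6.16, 6.31, 4.56 and 3.95 at 4h and 10.1, 10.9, 9.45 and 8.56 in rev. Dpf1 was low, with 19 to 95 counts in a rev library, but rev did not overlap the other 3 groups.

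The promoter windows of 4 regulators are shown because these genes cover several time courses. In Klf3 the mean at 4h was near that at 0h in clone 4 (38.7 and 40.9 CPM) and above it in clone 8 (64.5 and 48.8). In Zbtb7a it was 19.2 beside 23.2 CPM in clone 4 and 24.2 beside 22.0 in clone 8. Notch1 differed little between 0h and 4h in either clone, and Ppp1r10 was high both at 2h and in rev. Each window runs from 250 bases before to 50 after a RefSeq transcription start (GRCm38.p6, 5′ to 3′ on the gene's strand), and capitals mark GGGCGG (the GC box bound by SP and KLF factors) and CACCC on either strand. The windows are chr5:64803271-64803570 (+) for Klf3, chr10:81136021-81136320 (+) for Zbtb7a, chr2:26503773-26504072 (-) for Notch1 and chr17:35916946-35917245 (+) for Ppp1r10. In GENCODE M21 (mm10) the protein-coding genes span chr5:64803388-64832901 (Klf3, ENSMUSG00000029178), chr10:81135220-81152995 (Zbtb7a, ENSMUSG00000035011), chr2:26457903-26516663 (Notch1, ENSMUSG00000026923) and chr17:35916434-35932283 (Ppp1r10, ENSMUSG00000039220), so the Zbtb7a, Notch1 and Ppp1r10 windows lie inside the annotated gene and the Klf3 window across its start.
Klf3: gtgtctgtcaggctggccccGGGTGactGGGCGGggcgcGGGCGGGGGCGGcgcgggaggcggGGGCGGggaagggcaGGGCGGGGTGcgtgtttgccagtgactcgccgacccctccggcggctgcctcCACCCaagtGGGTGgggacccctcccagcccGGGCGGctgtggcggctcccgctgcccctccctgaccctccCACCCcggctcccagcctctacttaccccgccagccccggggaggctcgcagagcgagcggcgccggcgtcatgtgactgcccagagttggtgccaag
Zbtb7a: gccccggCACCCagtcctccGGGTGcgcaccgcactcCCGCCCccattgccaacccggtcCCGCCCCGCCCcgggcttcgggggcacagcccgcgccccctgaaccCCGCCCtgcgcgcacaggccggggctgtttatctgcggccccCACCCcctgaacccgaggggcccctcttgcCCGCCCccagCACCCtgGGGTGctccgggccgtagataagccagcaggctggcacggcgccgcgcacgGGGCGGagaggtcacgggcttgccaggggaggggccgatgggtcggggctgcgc
Notch1: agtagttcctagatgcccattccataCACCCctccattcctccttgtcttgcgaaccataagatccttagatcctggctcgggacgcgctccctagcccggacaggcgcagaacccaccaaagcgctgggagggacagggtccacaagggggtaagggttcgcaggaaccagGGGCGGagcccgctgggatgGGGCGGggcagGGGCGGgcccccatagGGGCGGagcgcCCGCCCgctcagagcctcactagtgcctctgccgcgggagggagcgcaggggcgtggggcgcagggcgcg
Ppp1r10: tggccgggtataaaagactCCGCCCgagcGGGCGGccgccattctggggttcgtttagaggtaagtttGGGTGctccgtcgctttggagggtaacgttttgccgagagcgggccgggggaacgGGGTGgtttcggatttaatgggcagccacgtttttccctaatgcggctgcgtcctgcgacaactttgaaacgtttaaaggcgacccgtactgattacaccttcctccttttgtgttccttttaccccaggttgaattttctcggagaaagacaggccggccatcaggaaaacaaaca
The Klf3 and Zbtb7a windows each held 6 GGGCGG and 5 CACCC, the Notch1 window 5 and 1, and the Ppp1r10 window shown, the first of 2 in the table, 2 and 2. The other Ppp1r10 window (chr17:35919022-35919321) held 1 and 1.

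Of the 41 members, 27 had a promoter in the RefSeq table, with 31 windows. GGGCGG occurred on either strand in 22 of these 27 genes (81.5%), against 70.4% of the 9233 tested genes with a window, which is not read as a trait of the members, and the median GC content of a window was 65.3% against 61%. Since GGGCGG is itself rich in G and C, its share and the GC content are not separate observations. CACCC was in 17 of the 27 (63%, against 66.8% of all), CCAAT in 7 (25.9% against 44%) and the ETS motif CCGGAAG in 3 (11.1% against 21%). The cAMP response element TGACGTCA was in 2, Sphk2 and Cltb (7.41% against 3.69%), and the shorter TGACG, which lies within it, in 5 (18.5% against 35.8%). Neither the forkhead motif TGTTTAC (3.14% of all) nor the CArG box of the serum response element (1.53% of all) was in any window, which says only that these letters were not in these windows.

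Receptors, ligands and a related protein come next. Notch1, the receptor of the Delta and Jagged ligands, was at 64.4, 61.2, 49.2 and 46.9 CPM at 0h, 54.5, 58.2, 49.1 and 48.5 at 2h, 59.2, 59.6, 46.1 and 46.8 at 4h and 94.6, 93.8, 81.2 and 59.5 in rev. Both clone 4 libraries and the first of clone 8 were above all 0h and 4h libraries, and rev clone 8 replicate 2 (59.5 CPM) lay within their range. Fzd10, a Frizzled receptor for Wnt ligands, was at 38.8, 40.4, 29.7 and 29.3 CPM at 0h, 26.5, 32.0, 23.7 and 25.3 at 2h, 29.6, 30.1, 28.3 and 29.7 at 4h and 52.1, 54.5, 51.2 and 51.8 in rev. The 4 rev libraries lay within 51.2 to 54.5 CPM, above every library of the other groups. Plxnb1, the receptor of semaphorin 4D, was at 5.70, 6.42, 6.75 and 8.34 CPM at 0h, 5.05, 6.57, 6.76 and 7.81 at 2h, 8.14, 7.94, 7.595 and 8.42 at 4h and 11.7, 13.0, 14.6 and 16.7 in rev, with no overlap between rev and the rest. Il34, a ligand of the CSF1 receptor, was at 6.79, 3.88, 8.68 and 9.41 CPM at 0h, 8.42, 8.76, 9.12 and 9.87 at 2h, 4.84, 3.97, 11.8 and 10.3 at 4h and 10.2, 14.1, 17.6 and 14.9 in rev. Both 4h libraries of clone 8 lay just above the lowest rev library, so the groups overlapped. Numbl, a relative of the Notch inhibitor Numb, went from 7.15 to 14.1 CPM at 4h to 13.6 to 18.03 CPM in rev.

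Kinases, phosphatases and their subunits follow. Ppp1r10, the PNUTS subunit that brings protein phosphatase 1 to chromatin, was at 53.2, 43.7, 48.2 and 45.5 CPM at 0h, 91.8, 88.9, 86.7 and 82.4 at 2h, 41.2, 44.7, 49.2 and 46.6 at 4h and 69.4, 72.3, 79.5 and 71.2 in rev. Its 2h libraries were the highest and its 0h and 4h libraries the lowest, with rev in between and no overlap. Dusp14, a dual-specificity phosphatase, was at 14.4, 12.5, 22.0 and 16.04 CPM at 0h, 14.4, 16.6, 32.5 and 32.7 at 2h, 9.02, 10.4, 22.2 and 22.9 at 4h and 14.1, 19.3, 38.6 and 39.2 in rev. Clone 8 was above clone 4 in all 4 groups, and the rev libraries of clone 4 lay below the 4h libraries of clone 8. At 4h its mean was 9.71 CPM beside 13.5 at 0h in clone 4, and 22.6 beside 19.0 in clone 8. Ulk1, the kinase that starts autophagy, was at 279, 230.5, 224 and 225 CPM at 0h, 274, 259.7, 308 and 345 at 2h, 189, 212, 260.1 and 292 at 4h and 298, 339, 374 and 402 in rev. All rev libraries were above all 0h and 4h libraries, with a fold of 1.48 over 4h. Its mean went from 255 CPM at 0h to 200 at 4h in clone 4 and from 225 to 276 in clone 8. Mast1, a serine/threonine kinase, is given with the low members below. Sphk2, a sphingosine kinase, went from 7.37 to 13.3 CPM at 4h to 15.9 to 21.6 CPM in rev. Tmppe, a membrane protein with a metallophosphoesterase domain, was at 19.3, 16.4, 14.96 and 19.7 CPM at 0h, 17.3, 14.9, 18.7 and 20.02 at 2h, 17.7, 16.8, 18.4 and 17.1 at 4h and 29.6, 30.2, 33.3 and 31.1 in rev. Its 12 libraries of the first 3 groups held between 14.9 and 20.02 CPM and none of the rev libraries came near them.

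**Figure D2:**
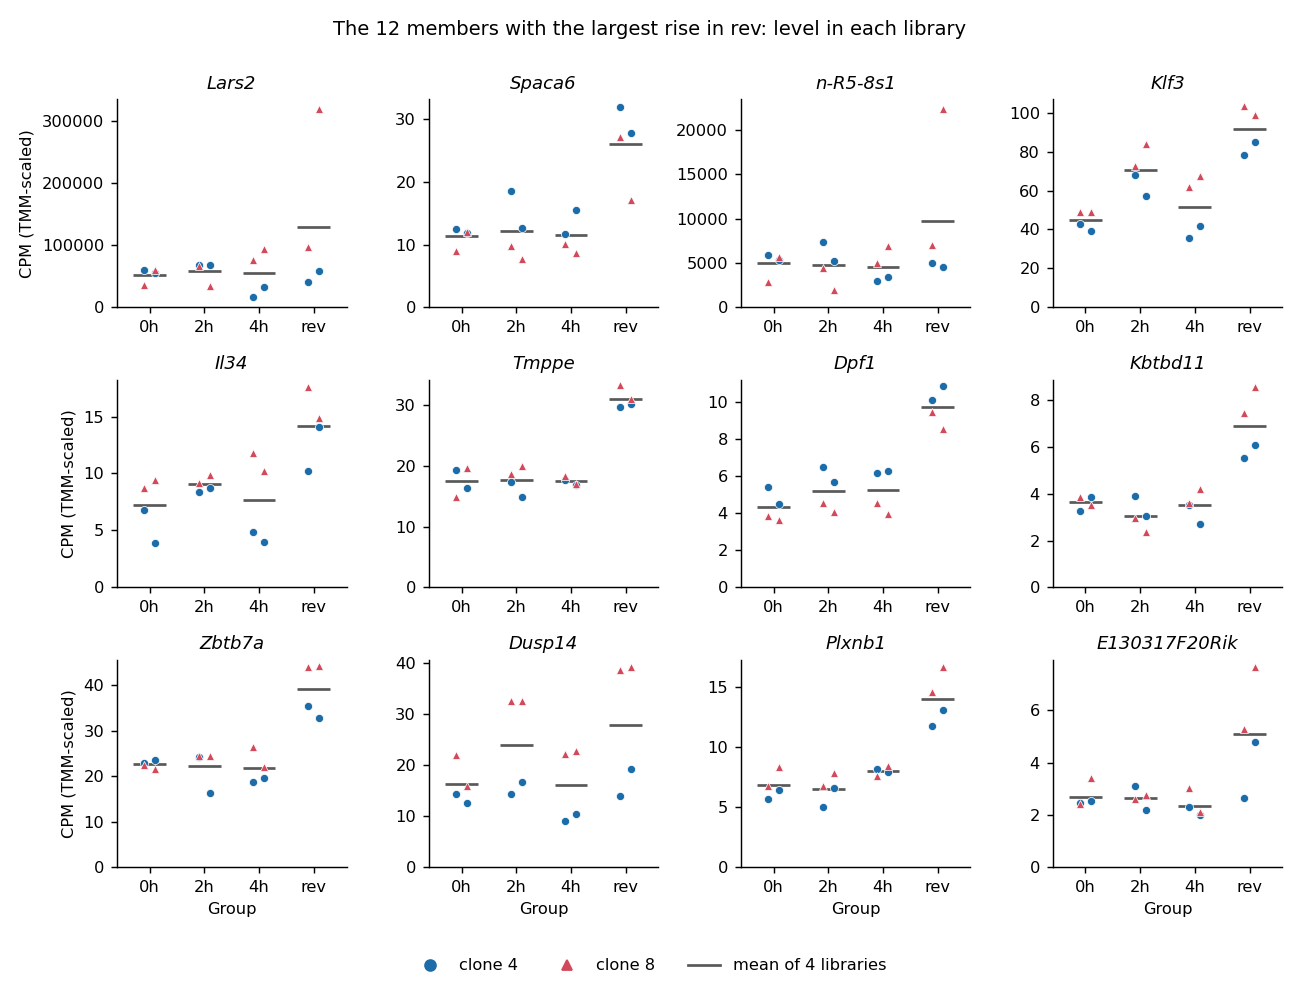
CPM of the 12 members with the largest rise in each library, by group, with circles for clone 4, triangles for clone 8 and a line at the mean of 4 libraries. In Tmppe, Klf3, Zbtb7a, Dpf1, Kbtbd11 and Plxnb1 the rev libraries stand apart from 0h and 4h, whereas in Lars2 and n-R5-8s1 the rev mean is set by 1 library of clone 8.

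The other members were not put in a role group. Spaca6, a sperm protein needed for fusion with the egg, had the largest rise after Lars2 and was at 12.5, 11.9, 9.01 and 12.1 CPM at 0h, 18.6, 12.7, 9.80 and 7.67 at 2h, 11.8, 15.5, 10.1 and 8.68 at 4h and 32.0, 27.8, 27.2 and 17.1 in rev. Rev libraries were above all others in 0h and 4h, and the lowest, clone 8 replicate 2, rested on 38 counts. Kbtbd11, a BTB and kelch domain protein, was at 3.26, 3.88, 3.86 and 3.53 CPM at 0h, 3.88, 3.07, 2.96 and 2.34 at 2h, 3.52, 2.69, 3.61 and 4.21 at 4h and 5.54, 6.08, 7.46 and 8.56 in rev, again with no overlap. E130317F20Rik, a noncoding RNA from a bidirectional promoter, was at 2.44, 2.54, 2.41 and 3.42 CPM at 0h, 3.11, 2.19, 2.62 and 2.77 at 2h, 2.31, 1.99, 3.04 and 2.10 at 4h and 2.66, 4.78, 5.30 and 7.66 in rev. Its first rev library lay within the 0h and 4h range, and its rev libraries held 17 to 32 counts. Prrt3, a proline-rich membrane protein, rose from 33.0 to 44.2 CPM at 4h to 53.7 to 72.1 in rev, and Marveld1, a membrane protein, from 11.8 to 15.5 to 21.1 to 23.4. Cltb, a clathrin light chain, and Rpp25, a subunit of RNase P, showed overlap with 0h or 4h. The 13 members left had rev means from 5.01 CPM (Calhm2, a calcium homeostasis modulator) to 25.3 CPM (Lrrc15, a leucine-rich repeat membrane protein) and rises from 0.50 to 0.67. They were Calhm2, Fam222a, Mobp, Gtpbp6, Fndc10, Kcnd1, the zinc finger gene Zfp276, Brdt, B3gnt3, Sh3d21, Lrrc15, Mast1 and Armc5, and the potassium channel gene Kcnd1 held 4.58 to 7.21 CPM in rev and 2.42 to 4.94 at 4h.

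Exons of 21 of the 41 members (51.2%) overlapped exons of another gene, against 36.0% of all tested genes. An antisense gene was among these in 16 of the 41, beside 3763 of the 12215 tested genes. Since no strand setting is given, reads in such stretches cannot be assigned, and the values of these members are uncertain to that extent. Tmppe shares exons on the same strand with Glb1 (beta-galactosidase), which was at 51.3 CPM at 4h and 53.4 in rev (log2 fold change 0.06 ± 0.08 SE, edgeR adjusted p = 0.654). E130317F20Rik is antisense to Ptbp1, the polypyrimidine tract binding protein, whose level was 324 CPM at 4h and 277 in rev (edgeR adjusted p = 0.114). Among partners that did rise were Dnase2a, antisense to Mast1 (0.49 ± 0.10 SE, edgeR adjusted p = 8.1e-04), Fanca, antisense to Zfp276 (0.41 ± 0.09 SE, edgeR adjusted p = 0.00171), and Vps9d1, also antisense to Zfp276 (0.48 ± 0.15 SE, edgeR adjusted p = 0.0283). Gm15894, antisense to Il34, rose by 1.22 ± 0.34 (SE, edgeR adjusted p = 0.0119), from 1.33 to 2.58 CPM.

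The 5 remaining members were Lars2, a ribosomal RNA model and 3 transcripts of the mitochondrial genome. Lars2, a nuclear gene for the mitochondrial leucyl-tRNA synthetase, is 1 of the 8 most abundant models and was at 59449, 55526, 35216 and 60879 CPM at 0h, 68213, 67856, 66546 and 34184 at 2h, 16941, 33432, 76208 and 94196 at 4h and 40303, 58542, 97896 and 319734 in rev. It took 4.62% and 5.57% of counts in rev of clone 4, 8.31% and 14.8% in rev of clone 8, and 7.49% and 8.55% at 4h of clone 8. The 5.8S ribosomal RNA model n-R5-8s1 was at 5953, 5377, 2846 and 5708 CPM at 0h, 7376, 5236, 4420 and 1929 at 2h, 2941, 3458, 5035 and 6872 at 4h and 4981, 4602, 7080 and 22421 in rev. Both were high in rev clone 8 replicate 2, and neither gene met the rule within either clone. In both the mean at 4h was below that at 0h in clone 4 and above it in clone 8. In clone 4 alone the rises were -0.22 and -0.24 and in clone 8 alone 1.29 and 1.31. Without rev clone 8 replicate 2 the pooled rises were 0.25 and 0.15. The ribosomal RNA model CT010467.1, which is no member, averaged 195703 CPM at 4h and 300033 in rev. The part of leftover ribosomal RNA in these values was not tested.

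The mitochondrial ribosomal RNAs mt-Rnr2 and mt-Rnr1 also had a lower mean at 4h than at 0h in clone 4 and a higher one in clone 8, and mt-Rnr1 met the rule in neither clone alone. In mt-Rnr2 the rev libraries held 64139 to 83935 CPM and the 4h libraries 30576 to 50902, with no overlap, and mt-Rnr1 likewise went from 22125 to 37976 to 46571 to 57242. The subunit mt-Nd6 of respiratory complex I, encoded on the strand opposite to the other mitochondrial proteins, held 409 to 698 CPM at 4h and 776 to 932 in rev. As shares of all counts the order was different: in rev clone 8 replicate 2, whose TMM factor was 0.463, mt-Rnr2 (3.28%), mt-Rnr1 (2.41%) and mt-Nd6 (0.0361%) were each at their lowest of the 16 libraries. The antisense neighbour mt-Nd5 of mt-Nd6 was at 1780 CPM at 4h and 2118 in rev (log2 fold change 0.24 ± 0.14 SE, edgeR adjusted p = 0.266).

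Because the pooled contrasts chose the members, the rise was measured again in libraries that had no part in the choice. The rule was applied to 1 clone alone, and rev was tested against 4h in the other clone. Clone 4 chose 40 genes, and in clone 8 16 of them (40%) were called higher and 0 lower, against 2.41% and 2.8% of all tested genes there. Of these 40 genes 35 had a positive change in clone 8, with a median log2 fold change of 0.63 beside 0.00 for all genes. Clone 8 chose 71 genes, of which 27 (38.0%) were called higher in clone 4 and 0 lower, against 4.76% and 5.46% of all genes. Here 65 of 71 were positive, with a median of 0.44 beside 0.01. With 1 library left out an arm of the comparison within a clone holds 1 library, which is assumed to vary like those of the other groups. The count in clone 8 fell to 4 without rev clone 8 replicate 1, to 8 without 4h clone 8 replicate 2 and to 10 without 4h clone 8 replicate 1. The count in clone 4 fell to 16 without 4h clone 4 replicate 1 and to 17 without rev clone 4 replicate 2.

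Both clones chose 9 genes, Spaca6, Tmppe, Notch1, Ppp1r10, Prrt3, Sall3, Nfic, Kbtbd11 and Sh3d21, all among the 41 members. Membership and a choice in both clones use the values of both, so the changes of single members within a clone are given as a description, with no test. In clone 4 and clone 8 the log2 fold change of rev against 4h was 1.15 ± 0.17 and 1.33 ± 0.23 (SE) for Spaca6, 0.79 ± 0.13 and 0.87 ± 0.16 for Tmppe, 0.67 ± 0.10 and 0.65 ± 0.12 for Notch1 and 0.72 ± 0.10 and 0.67 ± 0.11 for Ppp1r10. It was 0.70 ± 0.11 and 0.66 ± 0.13 for Prrt3 and 0.66 ± 0.16 and 0.66 ± 0.19 for Sall3. For Nfic it was 0.58 ± 0.19 and 0.95 ± 0.23 and for Kbtbd11 0.88 ± 0.26 and 1.01 ± 0.30. Sh3d21, with 12 to 50 counts in a rev library, had 0.67 ± 0.27 and 0.65 ± 0.33. Chosen in clone 4 only were Klf3 (0.66 ± 0.11 in clone 8), Marveld1 (0.69 ± 0.17), Armc5, Brdt, Calhm2, Il34, Mast1, Numbl and Zfp276. Chosen in clone 8 only were Zbtb7a (0.84 ± 0.13 in clone 4), Fzd10 (0.83 ± 0.10), Dusp14, Plxnb1, Dpf1, Fam222a, mt-Rnr2, Cltb, E130317F20Rik, Gtpbp6 and Sphk2. The remaining 12 members were chosen in neither clone alone.

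**Figure D3:**
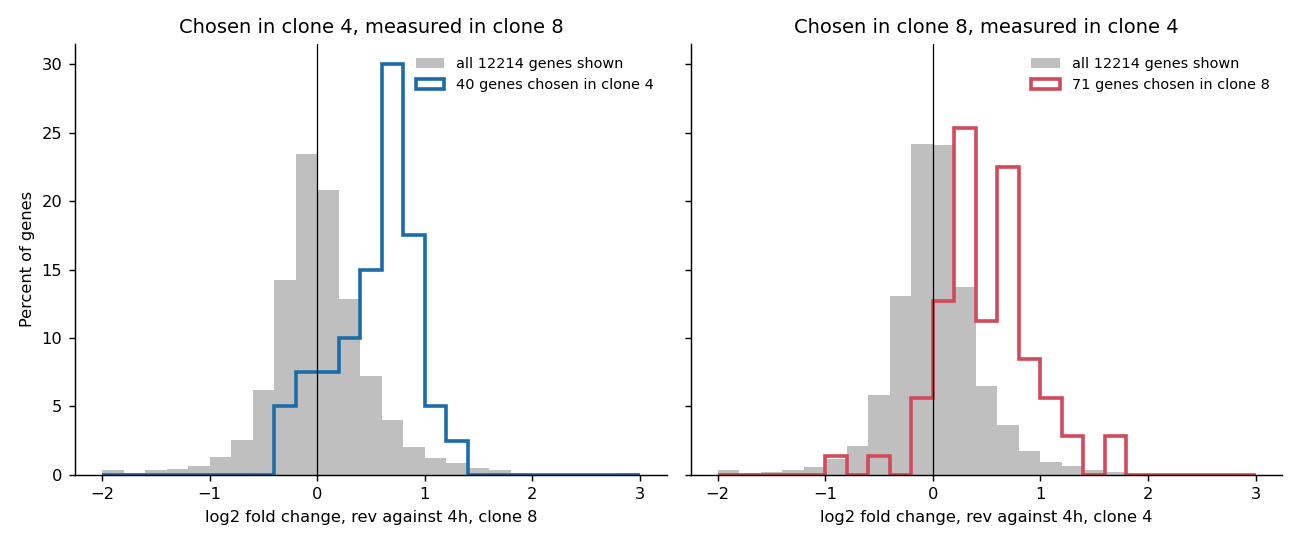
Percent of genes by log2 fold change of rev against 4h in the clone that did not choose them, for the chosen genes (outline) and all tested genes but 1 (grey), with values beyond -2 and 3 drawn at the ends. The 40 genes chosen in clone 4 centre on 0.63 in clone 8 and the 71 chosen in clone 8 on 0.44 in clone 4, while all genes centre on 0.

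The 2h libraries had no part in the choice, but those at 0h and 4h did. The rule holds these near each other and favours genes that were low in them, which by itself raises 2h against 0h and lowers 4h against 2h. Changes of members at 2h are therefore a description, with no test, and the shares beside them do not allow for this. At 2h 7 members passed as higher than at 0h (11.4% of all tested genes were, and 5.09% of the 5167 genes with a flat 4h level) and 2 as lower (9.68% and 2.61%). Between 2h and 4h 4 members passed as lower (3.52% of tested genes) and 1 as higher (3.8%). The 4 that passed in both steps were Ppp1r10, Klf3, Dusp14 and Ulk1, a course that 0.606% of tested genes and 0.91% of the flat genes took.

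In Ppp1r10 the log2 fold change was 0.88 ± 0.08 (SE) at 2h against 0h and -0.95 ± 0.08 at 4h against 2h. Its 2h mean, 87.4 CPM, was above the rev mean of 73.1. In Klf3 the values were 0.67 ± 0.09 and -0.50 ± 0.09, and its rev mean of 91.4 CPM was above the 2h mean of 70.6. They were 0.58 ± 0.13 and -0.59 ± 0.13 in Dusp14 and 0.30 ± 0.09 and -0.33 ± 0.09 in Ulk1. In these last genes the 2h and 0h libraries of clone 4 overlapped. They held 14.4 and 16.6 against 14.4 and 12.5 CPM in Dusp14, and 274 and 259.7 against 279 and 230.5 in Ulk1. In clone 8 both 2h libraries were above both 0h libraries.

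Sh3d21, an SH3 domain protein, was higher at 2h by 0.81 ± 0.19 (SE), Mobp, a myelin protein, by 0.74 ± 0.23 and Armc5, an armadillo repeat protein, by 0.43 ± 0.15. None of these 3 passed between 2h and 4h. Fzd10 was lower at 2h (-0.38 ± 0.09) and so was Sall3 (-0.37 ± 0.13). Sall3 did not pass with DESeq2, with only the 2 groups compared, with no filter on low counts, with no clone covariate, with the GC trend removed or with library size alone, and Fzd10 was lost under the last of these. Sall3 at 4h was 0.51 ± 0.13 above 2h, a course taken by 0.262% of tested genes and 0.348% of the flat genes. The other 32 members did not pass at 2h, and the median of the 41 was 0.12 beside -0.02 for all genes.

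**Figure D4:**
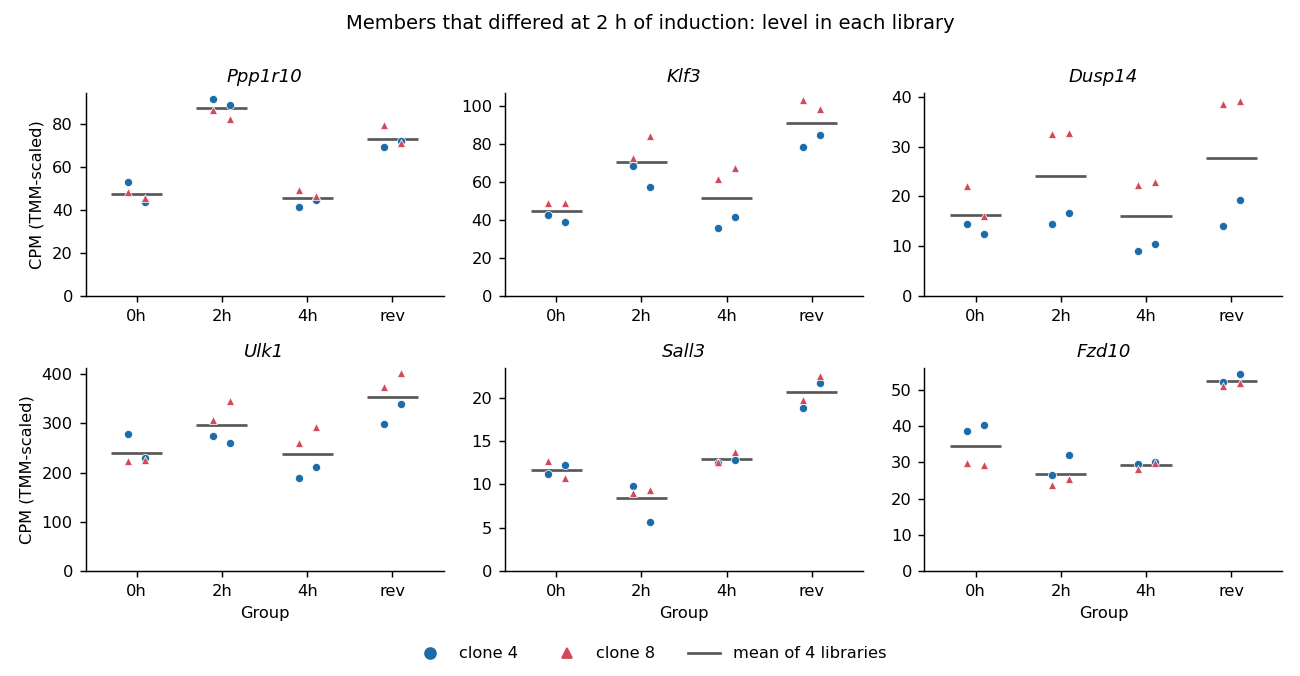
CPM in each library of 6 members that differed between 2h and 0h, by group, with circles for clone 4, triangles for clone 8 and a line at the mean of 4 libraries. By group mean Ppp1r10, Klf3, Dusp14 and Ulk1 peak at 2h and again in rev, and Sall3 and Fzd10 are lowest at 2h and highest in rev. In clone 4 the 2h and 0h libraries of Dusp14 and Ulk1 overlap. Fzd10 in 2h clone 4 replicate 2 (32.0 CPM) lies above every 4h library.

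The clones differed in the level of 20 members, 11 higher in clone 8 (15.4% of tested genes were) and 9 lower (13.7%), so 20 of 41 beside 29.1% of all genes. Dusp14 was higher in clone 8 by 1.04 ± 0.10 (SE, edgeR adjusted p = 1.09e-10), Il34 by 0.67 ± 0.13 (edgeR adjusted p = 1.57e-04), the glycosyltransferase B3gnt3 by 0.60 ± 0.14 (edgeR adjusted p = 0.00131) and Numbl by 0.46 ± 0.10 (edgeR adjusted p = 5.9e-04). Lars2 was also called higher in clone 8 (0.78 ± 0.29, edgeR adjusted p = 0.0411), but its order turned between groups, with a mean at 0h of 48047 CPM in clone 8 and 57488 in clone 4 and at 4h of 85202 and 25186. Lower in clone 8 were Mobp (-1.40 ± 0.17, edgeR adjusted p = 4.96e-08), the bromodomain protein Brdt (-0.97 ± 0.14, edgeR adjusted p = 1.36e-06), Fndc10 (-0.51 ± 0.13, edgeR adjusted p = 0.00325), Spaca6 (-0.50 ± 0.11, edgeR adjusted p = 6.64e-04) and Dpf1 (-0.39 ± 0.12, edgeR adjusted p = 0.00975). In Mobp the 4h libraries held 5.61 and 6.89 CPM in clone 4 and 1.90 and 0.789 in clone 8.

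For the difference between the clones in rev against 4h, 0 members passed with edgeR (0.00819% and 0% of tested genes in the 2 directions) and 0 with DESeq2. At an unadjusted p under 0.05 there were 5 (12.2% of members, 6.03% of all genes), and the smallest adjusted p was 0.587, for Lrrc15. In rev against 0h the counts were again 0 with edgeR (0.0409% and 0.0164% of tested genes) and 0 with DESeq2, with 8 unadjusted (19.5% of members, 9.03% of all genes) and a smallest adjusted p of 0.0871, for n-R5-8s1. That no member passed does not show that the clones responded alike.

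The members were rich in G and C. The median GC content of their longest annotated transcript was 55.9%, against 49.6% over all tested genes, and 35 of 41 were above the latter. When tested genes were put in 5 equal sets by GC content, the sets held 3, 3, 3, 11 and 21 members from the lowest to the highest GC. Over all genes in these sets the median change in rev against 4h ran from -0.09 through -0.04, 0.02 and 0.06 to 0.13, and the same order was seen in clone 4 (-0.07 to 0.12) and clone 8 (-0.13 to 0.16). It ran from -0.05 to 0.05 in rev against 0h and from 0.04 to -0.07 in 4h against 0h. Within a library, the highest set minus the lowest was 0.015 and 0.025 in rev of clone 4 and 0.20 and 0.26 in rev of clone 8. At 4h it was -0.18 and -0.10 in clone 4 and -0.02 and -0.04 in clone 8. Other genes called higher in rev against 4h (928) had a median GC of 53.5%, and the 569 that fell at 4h and were restored in rev 53.4%. With the GC trend of each library removed, 28 of the 41 still met the rule, and Klf3 (0.85), Zbtb7a (0.71), Spaca6 (1.15), Tmppe (0.71), Notch1 (0.53) and Ppp1r10 (0.60) were among them. The 13 that did not were Armc5, B3gnt3, Bcl9l, Calhm2, Dpf1, E130317F20Rik, Gtpbp6, Mast1, Plxnb1, Rpp25, Sh3d21, Ulk1 and Zfp276. Of these Dpf1 (0.69), E130317F20Rik (0.69), Calhm2 (0.66) and Plxnb1 (0.63) kept a rise over 0.5. Dpf1 and Plxnb1 were lost because 4h then stood 0.29 and 0.27 above 0h, and E130317F20Rik and Calhm2 because their rev means were 4.88 and 4.93 CPM. The test across clones gave 13 of 39 and 19 of 59 genes after the same step. The share over all tested genes was not worked out for this fit, so these counts have no background beside them.

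**Figure D5:**
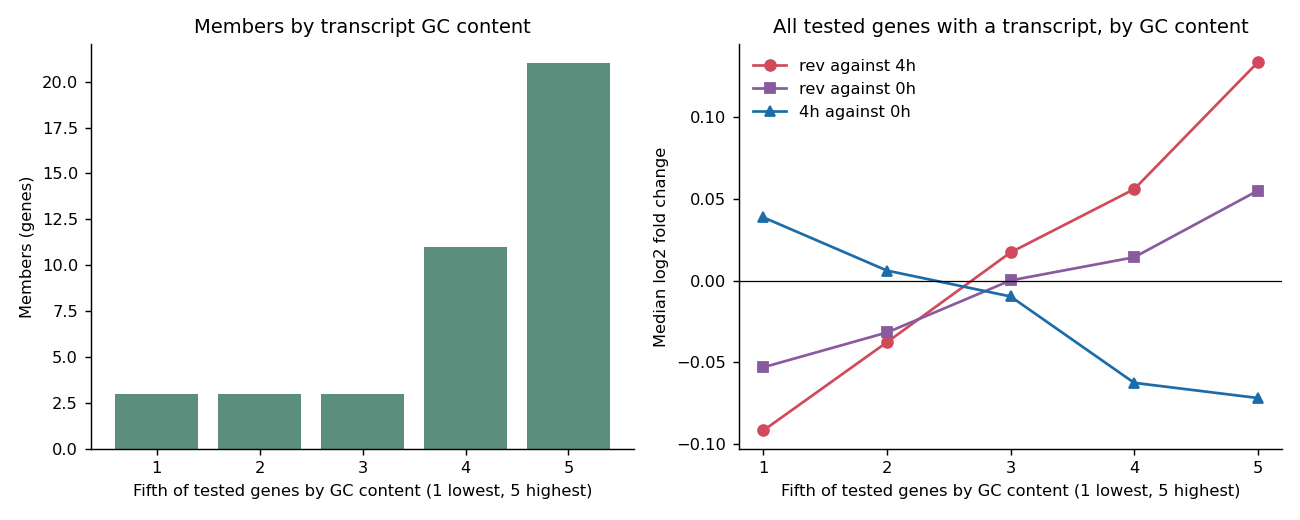
Left, number of members in each of 5 equal sets of tested genes by GC content of the longest transcript. Right, median log2 fold change of all genes in these sets for 3 contrasts. The set of highest GC holds 21 of the 41 members, and its median change in rev against 4h is 0.13, beside -0.09 in the set of lowest GC.

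All rises are relative to the composition of the library. With scaling by library size alone the median of all genes moved to -0.41 in rev against 4h and -0.32 in rev against 0h, and 2 members, Lars2 and Spaca6, kept a rise of 0.5. The rise stayed positive in all 41, from 0.08 for Rpp25 to 0.76 for Spaca6, though the members had been chosen for a rise. Under the same scaling 1 member was called higher at 2h, and none of the 14 genes that clone 4 then chose was called in clone 8, while clone 8 chose 0.

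Of 11 pathway lists, chosen with earlier results of these data known, Notch1 was the only member found in any. The Notch list had 13 tested genes, of which 4 were higher and 2 lower in rev against 4h, with a median of 0.10 beside 0.01 for all genes. The ligand Jag2 (0.80 ± 0.15 SE, edgeR adjusted p = 3.18e-04) and the receptor Notch3 (0.62 ± 0.12, edgeR adjusted p = 4.99e-04) were higher than at 4h, but unlike Notch1 both had fallen at 4h. The receptor Notch4 (-0.66 ± 0.14, edgeR adjusted p = 7.77e-04) and the DNA-binding partner Rbpj (-0.44 ± 0.08, edgeR adjusted p = 1.67e-04) fell. The ligand Jag1 was not called at 4h against 0h (0.15, edgeR adjusted p = 0.332) and was higher in rev against 4h (0.38 ± 0.11, edgeR adjusted p = 0.0181) and against 0h (0.53 ± 0.12, edgeR adjusted p = 0.00113). The target Hes1 did not pass in rev against 4h (-0.27 ± 0.11, edgeR adjusted p = 0.0993).

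Counts of list genes are to be read beside 7.93% higher and 8.43% lower over all tested genes in rev against 4h, and 12.4% and 9.86% in rev against 0h. The FOXO list was near these shares in both contrasts.

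Of 19 immediate-early and feedback genes of the ERK pathway 18 were lower in rev against 4h and 0 higher, with a median of -1.58, and Dusp6, the ERK phosphatase, went from 55.2 to 1.59 CPM. In the list of LIF and STAT3 genes (median 0.12) 4 of 17 were higher and 1 lower, the former including Pias3 (0.90) and Socs3 (0.67). Growth arrest and stress genes (median 0.03) had 7 higher and 3 lower of 20, with Gadd45b at 1.63, and receptor tyrosine kinases (median 0.07) 6 higher and 2 lower of 20, with Epha4 at 0.79 and Fgfr1 at 0.60. The Wnt list, to which Fzd10 and Bcl9l are related, had 2 higher and 2 lower of 17 (median -0.08), and the list of CREB targets 0 higher and 2 lower of 11 (median -0.01). In lists of BMP and TGF-beta genes (4 higher and 6 lower of 32, median -0.10), FOXO and PI3K-AKT genes (3 and 3 of 26, median 0.00), YAP and TEAD genes (2 and 3 of 18, median -0.01) and naive pluripotency genes (7 and 9 of 20, median 0.05) both directions occurred. In rev against 0h, where the median of all genes was -0.01, the Wnt list had 7 higher and 0 lower (median 0.34), LIF and STAT3 genes 10 and 1 (0.33), ERK feedback genes 11 and 2 (0.37), the Notch list 6 and 1 (0.20), YAP and TEAD genes 6 and 1 (0.18), BMP and TGF-beta genes 3 and 0 (0.13) and CREB targets 3 and 2 (0.09). Growth arrest and stress genes had 7 higher and 5 lower (median 0.04), naive pluripotency genes 4 and 1 (0.05), FOXO and PI3K-AKT genes 3 and 4 (-0.03) and receptor tyrosine kinases 3 and 3 (-0.07).

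Of the markers of other cell types, those of neural progenitors had a higher summed level in every rev library than in every 4h library. The sums were 66.2 to 85.6 CPM in rev, 48.9 to 53.4 at 4h and 58.5 to 72.5 at 0h, and 3 of the 5 tested passed as higher in rev against 4h, while Neurog2 and Zic1 averaged under 1 CPM. Primitive endoderm markers held 91.1 to 131 CPM in rev and 85.9 to 115 at 4h, with Gata6, Sox17 and Pdgfra under 1 CPM, and primed epiblast markers 44.1 to 52.6 and 54.5 to 72.0, with Fgf5 under 1 CPM. Fibroblast markers held 6.61 to 10.4 CPM in rev and 4.21 to 8.80 at 4h, with Col1a2, Col3a1 and Dcn under 1 CPM. Trophectoderm markers held 41.1 to 53.6 CPM in rev and 36.6 to 48.6 at 4h, and markers of 2-cell-like cells 8.95 to 21.1 and 16.3 to 20.1. The part of such cells in the members' values was not tested, and a change in the number of cells of a type and in RNA per cell cannot be told apart in bulk RNA.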

How the data were processed

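The 16 libraries were made from total RNA after depletion of ribosomal RNA. The deposited table holds raw read counts per gene identifier, whole numbers whose totals differ between libraries, and per the submitters' processing notes STAR 2.5.3a, bcl2fastq 2.19.1 and the genome mm10 were used. The counting tool, the annotation and the strand setting are not given in the sources used here. Sample titles gave each library's group, clone and number. Of 52636 identifiers 52403 were matched by gene ID to GENCODE M21 for symbols, positions, exon overlaps and GC content, and promoters came from RefSeq (GRCm38.p6).

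Counts were filtered with filterByExpr over the 4 groups and scaled with TMM factors (0.463 to 1.47) in edgeR 4.0.16 under R 4.3.3. The 12215 genes of all 16 libraries entered 1 quasi-likelihood fit with terms for group and for clone, and a model with 8 cells of group and clone gave the values within a clone and the differences between clones. Tests were two-sided with Benjamini-Hochberg adjustment over all tested genes at 0.05, and ± after a fold change is the standard error. Membership used group means of CPM with a pseudocount of 1, so rises understate the change of low genes. Members and lists were chosen with earlier results of these data known, and 1 gene is not reported here.

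Genes were named by rule: the 12 members with the largest rise, members in a pathway list, the 3 genes nearest each side of the threshold, members called for a measure that did not choose them (at most 5 in each direction) and up to 3 genes of a list in each direction. Other members were named by role after their values were seen, as were Hes1 and the exon partners. Alternatives were RLE factors, library size alone, other filters, thresholds and pseudocounts, no clone covariate, a replicate block, only the 2 groups compared, DESeq2 1.42.0 (Wald test), each clone alone, and leaving out each library. Removal of a GC trend (lowess of each library's log2 deviation on the GC content of a gene's longest transcript) was chosen after seeing the data. The tests were run on simulated counts that had no clone effect, no GC trend and no shift in the abundant models. That check does not cover these features of the data. Counts carry no molecular identifiers, so a floor of 3 counts covers counting error only.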

Additional observations from a re-analysis of the deposited data

Results flagged for a closer look

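For the 24 members named by rule, each group of 4 libraries was checked for a library far from the other 3. Of 96 groups 6 had one, and about 1 in 20 such groups is expected to have one by chance. Zbtb7a was at 16.2 CPM in 2h clone 4 replicate 2, the shallowest library, with the others at 24.2 to 24.4. Ulk1 was at 279 CPM in 0h clone 4 replicate 1, with the others at 224 to 230.5. Spaca6 was at 9.01 CPM in 0h clone 8 replicate 1, with the others at 11.9 to 12.5. E130317F20Rik was at 3.42 CPM in 0h clone 8 replicate 2, with the others at 2.41 to 2.54.

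Lars2 was at 34184 CPM in 2h clone 8 replicate 2, with the others at 66546 to 68213. The 5.8S ribosomal RNA model n-R5-8s1 was at 22421 CPM in rev clone 8 replicate 2, with the others at 4602 to 7080. In that library the 8 most abundant models took 80.4% of counts and 940289 counts lay outside them, and the part of this in the n-R5-8s1 value was not tested.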

How the results depend on the processing

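The rises of single members were recomputed 1145 times under the alternatives. Of these 1088 moved by less than the SD of the member's rev libraries, 55 moved further and 2 reversed. The reversed ones were those of Lars2 (-0.22) and n-R5-8s1 (-0.24) in clone 4 alone. That SD spans both clones, so it includes the difference between them. Settings that changed only a threshold of the rule leave a rise as it was, so the 1088 include rises that could not move. The 41 members became 2 with library size alone, 72 without the 8 most abundant models (36 of the 41 among them), 78 at a rise of 0.4, 23 at 0.6 and 71 in clone 8 alone, and leaving out 1 library gave 37 to 50. Of the 41, only 26 still met the rule without 0h clone 8 replicate 1 (11 other genes entered), 28 without 4h clone 4 replicate 1 and 31 without 4h clone 4 replicate 2, and 32 to 38 without any other library. Library size alone gave 1 member higher and 0 lower at 2h against 0h, 0 higher and 1 lower at 4h against 2h, 11 members differing between clones, 5 list genes higher in rev, and 0 genes chosen in 1 clone and called higher in the other, either way. With no filter on low counts 1 member was lower at 2h, 9 fell from 2h to 4h, and 1 and 2 members passed for the difference between clones in rev against 4h and against 0h. Without the clone covariate 3 members were higher and 1 lower at 2h, 1 fell from 2h to 4h, and 20 list genes, not 39, were higher in rev. Only 1 member was lower at 2h with only the 2 groups compared, with DESeq2 or with the GC trend removed. The cause of these shifts was not tested. Leaving out 1 library gave 1 to 3 members lower at 2h, 0 to 2 for the difference between clones in rev against 0h, 16 to 28 genes chosen in clone 8 and called in clone 4, and 4 to 16 chosen in clone 4 and called in clone 8.

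Clone and replicate numbers did not pair the libraries: the residuals of 12 same-numbered pairs correlated at -0.32 to 0.19 over 6108 genes. With the replicate block 7 members were higher and 2 lower at 2h, 1 higher and 4 lower at 4h against 2h, and 39 list genes higher and 50 lower in rev. Depth limited the low members most: in rev clone 8 replicate 2 a count of 3 was worth 1.35 CPM.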
